A study of Mus musculus with 5 samples.

Results

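The neurotrophins and their receptors were followed in S1 neurons sorted by axon projection and cortical layer. The group holds the ligand genes *Bdnf* and *Ntf3*, the Trk receptor genes *Ntrk2* and *Ntrk3*, the p75 receptor gene *Ngfr*, and the sortilin gene *Sort1*. Members were chosen by name, and each was read by its probe set, the set of probes that measures a gene on the array. Of the 6 members, 5 had a probe set whose annotation gives their symbol alone, out of 19938 genes so named, and *Ntf3* was not analysed here. All 5 were among the 12632 genes that reached the median signal of an array in at least 1 array, which are the genes compared.

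The mice were ICR, a wild-type outbred stock, and tissue was taken at postnatal day 24. Green RetroBeads, a tracer that axon terminals take up and carry back to the cell body, had been injected into M1 or into the contralateral S1 (cS1) 3 days earlier. According to the methods, the same mice had received a tdTomato plasmid by *in utero* electroporation of L2/3, and its red axons guided the injections. Laser microdissection gave 5 groups of about 1000 neurons. Association neurons, which send axons from S1 to M1, came from L2/3, L5, and L6b. Callosal neurons, which send them to cS1, came from L2/3 and L5. Each group was hybridized to 1 array, so there is no replicate check, no p-value is given, and a difference of at least 2-fold is a size and not a test. The sources used here do not state the sex of the mice or how many went into an array.

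Neurotrophins are secreted factors that support the survival, the dendrites, and the synapses of neurons. BDNF acts through the kinase receptor TrkB, encoded by *Ntrk2*, and NT-3 acts mainly through TrkC, encoded by *Ntrk3*. The p75 receptor binds all mature neurotrophins weakly, and together with sortilin it binds their uncleaved precursors. Sortilin also directs the BDNF precursor into the secretory pathway of neurons.

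As a check of the groups, *Slc17a7*, the vesicular glutamate transporter gene of cortical projection neurons, stood 3.84 to 4.47 log2 above the array median in all 5 arrays. Not every glutamatergic marker was so even, and *Camk2a* stood at 2.41 in L6b and at 4.41 to 5.75 elsewhere. Of 11 L6b and subplate markers with a probe set, 9 passed the filter, and 2 lay below the median in L6b. All 9 were highest in the L6b array, 7 of them by at least 2-fold over each other array. The list includes *Kcnab1* and *Ctgf*, which the paper placed among its L6b candidates from these same arrays. This count is thus in part fixed by selection. Interneuron markers also gave signal, with a mean over the 13 past the filter of 1.02 in L6b and 1.8 to 2.13 elsewhere. Among them *Sst* stood at 2.45 in L6b and at 3.78 to 4.66 elsewhere, and *Pvalb* at -1.38 in L6b and at 2.26 to 4.57 elsewhere. A low signal in such a pool of cells cannot be told apart into fewer cells that express a gene and less RNA per cell.

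Sequence is shown for *Bdnf* because its gene starts from several promoters that the array could not separate. The single *Bdnf* probe set is annotated with 11 of the 12 curated RefSeq transcripts of the gene, so its signal pools them. The RefSeq promoter table (GRCm38.p6) holds 7 start sites of *Bdnf*, each as 250 bases before and 50 after the start. The short motif CACGTCA, an element that resembles the site of the activity-dependent factor CREB, was searched for on both strands. It was found at 1 of the 7 starts, and in 2.01% of all 32851 windows of the table. The stretch that ends just before this start lies at chr2:109692379-109692435 on the plus strand, with the motif in capitals:

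Bdnf start with CACGTCA: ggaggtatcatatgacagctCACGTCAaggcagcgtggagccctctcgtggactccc

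The full site TGACGTCA was in none of the *Bdnf* windows and in 1.79% of all windows. The 2 *Ntf3* windows, the 1 *Ntrk2* window, and the 1 *Ngfr* window held neither motif. These matches describe the letters and were not tied to a signal on the arrays.

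*Bdnf* had the same deposited log2 signal, 6.43, in all 3 arrays of association neurons and both of callosal neurons. A value repeated in every array, 0.63 to 0.72 log2 above the array medians, cannot show whether *Bdnf* RNA was level between layers or projections. Identical values in all 5 arrays occurred in 329 of the 12632 genes, or 2.6%, so *Bdnf* belongs to a small class of such genes. Repeated values were common more widely, with 1 value shared by at least 3 arrays in 36.4% of the genes compared. *Ntrk2* and *Sort1* also repeat a value, each in 2 arrays. How a value came to repeat exactly is not stated in the methods. Its bearing on the even *Bdnf*, *Ntrk3*, and *Ngfr* signals, and on the other members, was not tested. After subtraction of each array's median *Bdnf* stood at 0.72 (L2/3), 0.66 (L5), and 0.63 (L6b) for association neurons and at 0.69 for both callosal arrays. This order mirrors the array medians, which ran from 5.71 in association L2/3 to 5.8 in association L6b, and carries no information on *Bdnf* itself.

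*Ntrk2*, the gene of the BDNF receptor TrkB, had signals that ranged over the arrays, unlike the repeated *Bdnf* value. Among association neurons its signal above the array median was 2 log2 for L2/3, 1.41 for L5, and 1.41 for L6b, and among callosal neurons 1.47 for L2/3 and 1.02 for L5. The association L2/3 array was the highest and the callosal L5 array the lowest, while the remaining arrays lay at 1.41 to 1.47. The whole range was 0.98 log2, or 1.97-fold, and 29.7% of the genes compared had a larger range. Association neurons stood above callosal neurons by 0.53 log2 within L2/3 and 0.39 log2 within L5. L5 stood below L2/3 by a difference of -0.59 log2 in association and of -0.45 in callosal neurons. The direction was thus the same in both layers and in both projections, and each of these differences was under 2-fold. These signs follow from association L2/3 being highest and callosal L5 lowest. The differences share single arrays and are no separate checks. The *Ntrk2* probe set is annotated with all 3 curated transcripts of the gene, so kinase-bearing and truncated forms of TrkB were not separated.

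Truncated TrkB is also known from astrocytes, so their markers are set beside *Ntrk2*. Of 12 astrocyte markers, 11 passed the filter, and their mean signal among association neurons was 1.62 for L2/3, 1.61 for L5, and 1.29 for L6b, against 1.73 and 1.82 for L2/3 and L5 of callosal neurons. The markers had no common order, with association L2/3 highest for 3 of the 11 and callosal L5 for 2. The mean of callosal L5 includes *S100b* at 4.44 and *Aldoc* at 5.41, which stood at 1.9 and 4.86 in association L2/3. The glutamate transporter gene *Slc1a3* stood at 2.06 in association L2/3 and at 1.02 to 1.29 in the other arrays. The water channel gene *Aqp4* stood at 0.31 in association L2/3 and below the array median in the other arrays. *Gfap* lay below the median in every array, from -0.55 to -0.31. The part of these cells in the *Ntrk2* signal was not tested.

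*Ntrk3*, the gene of TrkC, had a deposited log2 signal of 6.64 in 4 arrays and of 6.37 in association L6b. The L6b array was the only one that departed, downward by 0.27 log2, or 1.21-fold. A value shared by exactly 4 arrays was found in 9.11% of the genes compared. With the medians subtracted, the signal was 0.57 for L6b and 0.87 to 0.93 elsewhere. The difference of -0.33 from the mean of the other arrays was matched or exceeded in size by 31.3% of genes.

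*Ngfr*, which encodes p75 and is known as a gene of subplate neurons during development, had a deposited log2 signal of 6.43 in 4 arrays, L6b included. The exception was callosal L2/3 at 6.32. The L6b signal of *Ngfr* differed from the mean of the other arrays by -0.03 with the medians subtracted and by 0.03 as deposited. It stood only 0.58 to 0.72 log2 above the median over the arrays, and 6.43 is also the value that *Bdnf* repeats. A repeated value this low cannot show whether *Ngfr* RNA in L6b was level with the other groups. Its range over the arrays, 0.14 log2 or 1.1-fold, was exceeded by 86% of genes.

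*Sort1*, the sortilin gene, was the member that differed most. Among association neurons its signal above the array median was 3.59 log2 for L2/3, 2.64 for L5, and 1.92 for L6b, and among callosal neurons 2.7 for L2/3 and 2.67 for L5. Association L2/3 was the highest array and association L6b the lowest. The L5 arrays and callosal L2/3 lay between them, with deposited log2 signals of 8.41 to 8.44 that give no order among these arrays. The deposited log2 signal was 9.3 in association L2/3 and 7.72 in association L6b. The range of 1.67 log2, or 3.18-fold, was exceeded by 13.6% of the genes compared.

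In association neurons the *Sort1* signal was lower in each deeper layer. It was lower in L5 than in L2/3 by a difference of -0.95 log2 (1.93-fold), and lower in L6b than in L5 by a difference of -0.72 (1.65-fold). In callosal neurons the L5 minus L2/3 difference was -0.03. Oligodendrocyte and myelin markers differed between the same layers. In association neurons 6 of 11 were at least 2-fold higher in L5 than in L2/3, beside 10.8% of all genes apart either way. In L6b minus L2/3 of these neurons 8 of 11 were higher, beside 13.4% of all genes. Between L5 and L6b the markers split, with 2 of 11 higher in L6b and 2 lower, beside 10.7% of all genes. Their mean signal was 0.33 for L2/3, 1.76 for L5, and 1.94 for L6b of association neurons, and 0.37 and 1.32 for L2/3 and L5 of callosal neurons. The myelin gene *Mog* stood at 4.12 in L6b and at 0.46 to 1.28 elsewhere, but L6b was highest for only 5 of the 11 markers and association L5 for 4. The part of these cells in the *Sort1* differences was not tested. Association minus callosal neurons gave 0.89 log2 (1.85-fold) in L2/3 and -0.03 in L5, where both arrays had the deposited signal 8.41. The difference between the layers in this contrast was 0.92 log2, which rests on the single association L2/3 array and has no test.

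**Figure D1:**
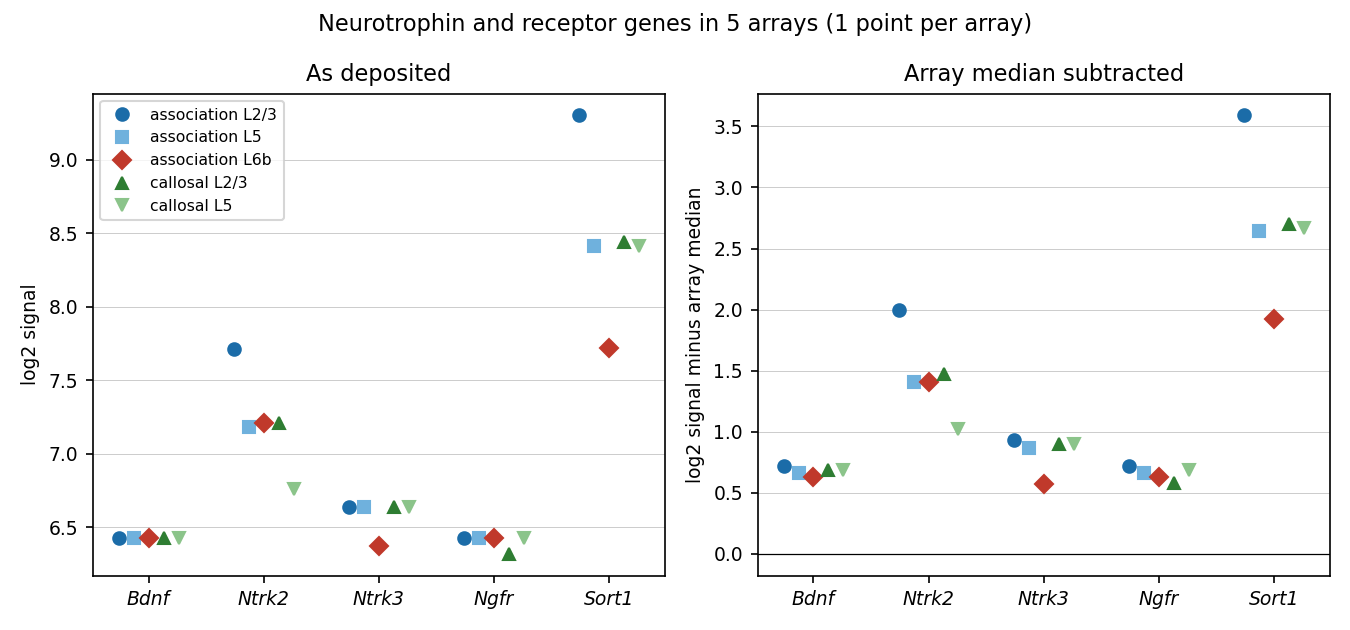
Signal of the 5 measured members (horizontal axis), with 1 point for each of the 5 arrays, as deposited log2 values (left) and with each array's median subtracted (right, vertical axis in log2). *Bdnf* lies at 6.43 in every array as deposited, whereas *Sort1* spans 7.72 in association L6b (red) to 9.3 in association L2/3 (dark blue).

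The 6 comparisons between pairs of arrays ask how projection and layer differ within S1. In L6b minus L2/3 of association neurons, 1 of 5 members, *Sort1*, was at least 2-fold apart, where 13.4% of all genes compared were. The *Sort1* difference was -1.67 log2 (3.18-fold), and 5.31% of genes had a difference of this size or more. In each of the other pairs 0 of 5 members were at least 2-fold apart. The share of all genes at this size was 8.55% for association minus callosal in L2/3 and 8.46% for the same in L5. It was 10.8% for L5 minus L2/3 in association neurons, 8.6% for L5 minus L2/3 in callosal neurons, and 10.7% for L6b minus L5. With 5 genes, counts of 0 and 1 lie near these shares and are no result about the members.

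The member medians stayed close to those of all genes. In L6b minus L2/3 of association neurons the median of the 5 members was -0.36 log2 and that of all genes -0.09. In association minus callosal in L2/3 these medians were 0.14 and 0.03. In the other pairs the member median equalled that of all genes, from -0.06 to 0. As deposited both medians were 0 in these pairs, where the middle member had the same value in both arrays. The equality thus reflects repeated values and the offset of the array medians, and is no result about the members. The 6 comparisons share arrays with each other, association L2/3 being part of 3 of them.

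**Figure D2:**
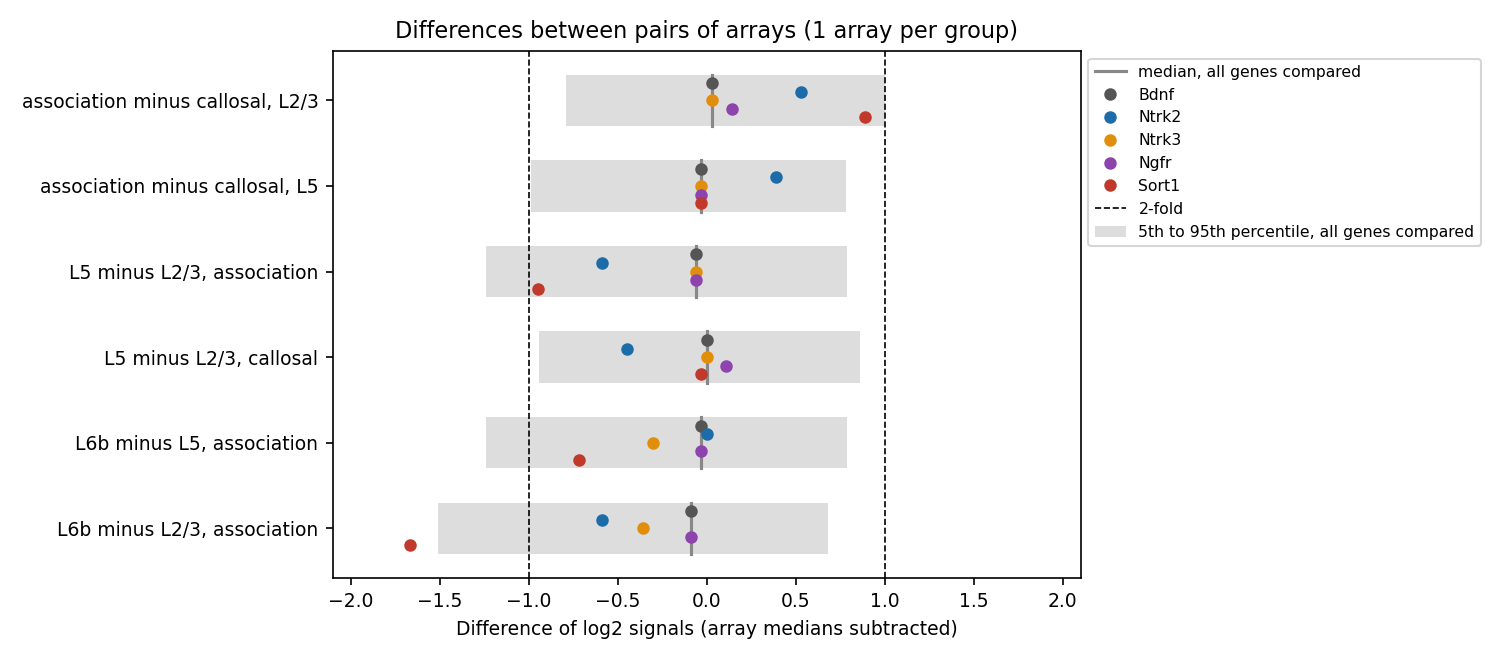
Difference of log2 signals (horizontal axis) of the 5 members, 1 point per gene, in 6 pairs of arrays (vertical axis). Gray bars span the 5th to 95th percentile of all genes compared, and dashed lines mark 2-fold. Only *Sort1* in L6b minus L2/3 of association neurons, at -1.67, lies past 2-fold.

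L6b was also set against all other arrays, since the study selected candidate genes by their preference for L6b. None of the 5 members differed from each of the other 4 arrays by at least 2-fold in L6b, where 4.08% of all genes did. *Sort1* was nearest, with a difference of -0.98 log2 (1.97-fold) from the mean of the others, followed by *Ntrk3* at -0.33. *Bdnf* and *Ntrk2* each stood at -0.06, which is also the median of all genes in this contrast. Part of the glutamatergic neuron markers were also lower in L6b. The mean signal of the 10 markers was 2.33 for L6b and 3.03 to 3.31 elsewhere, and 4 of the 10 were lower in L6b by at least 2-fold against each other array. Of the rest, *Tbr1* (3.6 in L6b, 4.12 to 4.36 elsewhere), *Slc17a6* (-0.3, 0.26 to 1.33), and *Sv2b* (4.62, 4.68 to 4.99) were also lowest in L6b. *Slc17a7* (3.98 in L6b, 3.84 to 4.47 elsewhere), *Neurod2* (1.24, 1.01 to 1.53), and *Neurod6* (3.08, 1.29 to 3.42) were not. The part of these markers in the *Sort1* value was not tested.

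All 5 members stood above the array median in every array, the lowest signal being that of *Ntrk3* in L6b at 0.57, so that none was compared only through an array in which it was high. As deposited, *Ntrk2* and *Sort1* had their highest signal in association L2/3 alone, which was so for 17.2% of all genes compared. With the medians subtracted all 5 members were highest there, as were 28.5% of genes, that array having the lowest median. The median range of all genes over the 5 arrays was 0.53 log2, and 3 members lay below it and 2 above.

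**Figure D3:**
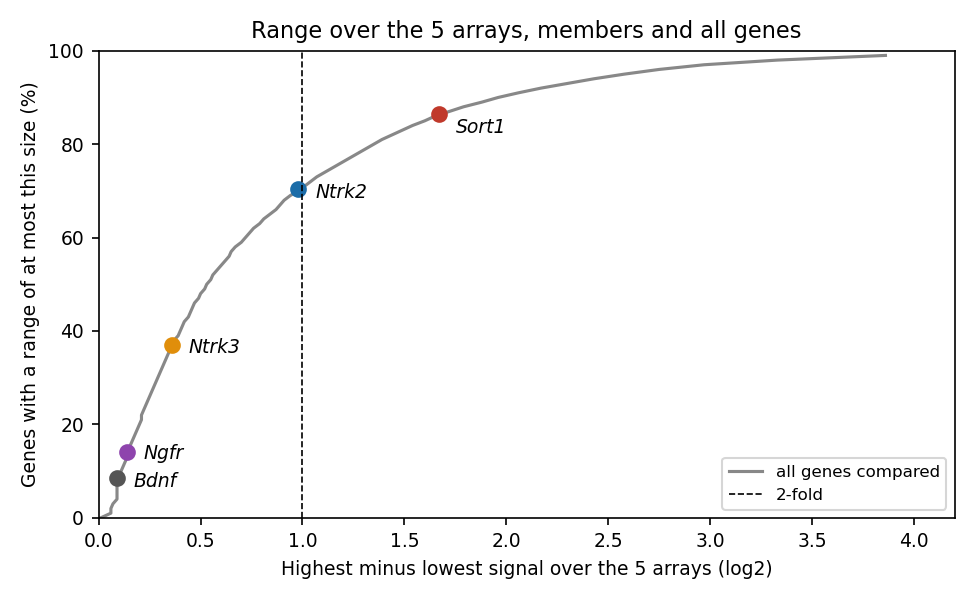
Highest minus lowest signal over the 5 arrays (horizontal axis, log2) against the percent of the 12632 genes with a range of at most that size (vertical axis). *Bdnf* (0.09), *Ngfr* (0.14), and *Ntrk3* (0.36) lie on the lower part of the curve, and *Ntrk2* (0.98) and *Sort1* (1.67) on the upper part.

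The 3 genes whose pattern was most like that of *Sort1* were *Arfgef1*, which encodes an exchange factor of Golgi vesicle traffic, *Usp38*, which encodes a deubiquitinase, and *Mex3b*, which encodes an RNA-binding protein. Likeness was the root mean square difference of signals centered on their mean over the 5 arrays, which was 0.0484, 0.0523, and 0.0634 log2 for these genes and 0.55 for the median gene. *Arfgef1* had its highest signal, 2.32, with association L2/3 and its lowest, 0.72, with L6b, the same highest and lowest arrays as *Sort1*. It stood at 1.5 to 1.53 elsewhere, which gives no order among these arrays. Under quantile normalization *Usp38* and *Mex3b* ranked 1 and 2 of 11715 genes and *Arfgef1* ranked 8. Over association L5 and both callosal arrays, *Arfgef1* and *Usp38* (0.18 to 0.21) spread no more than the array medians, 5.74 to 5.77. *Mex3b* spread more there, from 0.75 to 0.88. *Usp38* lay below the array median in L6b, at -0.42. The part of repeated values in this likeness was not tested. No other member had a range of at least 1 log2, the limit for this search.

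The relatives of the members were read in the same way. Among other neurotrophin and receptor genes, 5 had a named probe set and passed the filter. None of the 5 was at least 2-fold apart in any of the 6 pairs, where 8.46% to 13.4% of all genes were, so that a count of 0 of 5 lies near the background. *Sorl1*, a sortilin relative that sorts membrane proteins between Golgi and endosomes, stood at 1.6 in L6b and at 2.37 to 2.57 elsewhere, which is the same lowest array as for *Sort1*. *Sorcs3* stood at 1.4 in association L2/3 and at 0.65 to 0.69 elsewhere, which is the same highest array. *Sorcs1* ranged over 0.18 log2, and *Sorcs2* and the ligand gene *Ntf5* over 0.4 and 0.39.

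The wider pathway was read from lists of precursor processing, Trk adaptors, and p75 partners, together with these relatives. Of 118 genes listed, 88 passed the filter. In L6b minus L2/3 of association neurons 12 of the 88 were at least 2-fold apart, 2 higher and 10 lower, a share of 13.6% beside 13.4% of all genes. All genes leaned the same way in this pair, with a 5th percentile of -1.51 and a 95th of 0.68. The split is thus no result about the pathway. The shares in the other pairs were 5.68% to 6.82%, each below that of all genes. *Chgb*, which encodes a granin of the secretory granules that also carry BDNF, stood at 1.72 in L6b and at 3.24 to 3.67 elsewhere. *Lingo1*, which encodes a partner of p75, stood at 0.92 in L6b and at 2.58 to 2.92 elsewhere. *Pik3r1*, a subunit gene of the PI3 kinase that Trk receptors activate, stood at 1.6 in L6b and at 2.71 to 3.58 elsewhere. *Akt2*, a kinase gene downstream of it, stood at 3.44 in association L2/3 and at 1.47 to 1.95 elsewhere, the highest array being that of *Ntrk2* and *Sort1*. *Ndn*, which encodes necdin, a p75-binding protein, was highest in L6b at 3.75 and lowest in callosal L2/3 at 1.7. Among the other genes chosen by the same rule, *Pdpk1* (2.97), *Cadps2* (2.85), *Nck1* (2.11), and *Adam10* (2.35) were highest in callosal L5. *Pdpk1* and *Cadps2* were also lowest in L6b. *Serpini1* (5.15) and *Pcsk1* (2.55) were highest in L6b, and *Mapk9* ran from 3.65 in association L2/3 to 2.29 in L6b. The pathway genes thus had no common order.

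**Figure D4:**
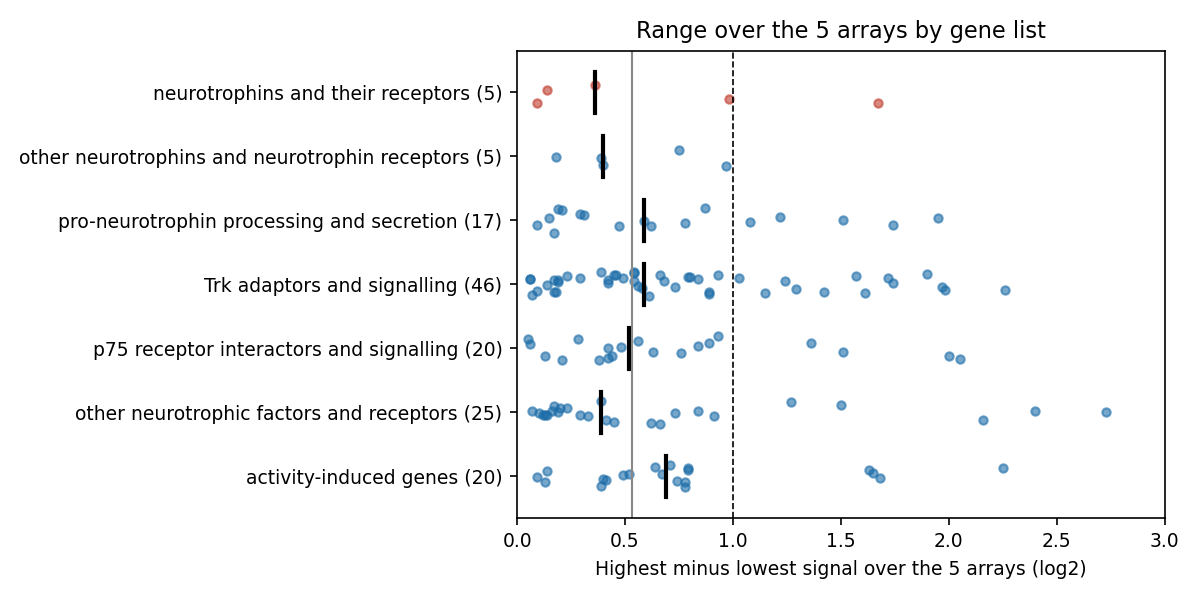
Highest minus lowest signal over the 5 arrays (horizontal axis, log2), 1 point per gene, for 7 gene lists (vertical axis, number of genes past the filter in parentheses). Black bars are list medians, the gray line is the median of all genes (0.53), and the dashed line marks 2-fold. The members (red) have a median of 0.36, and *Sort1* at 1.67 is the only one past 2-fold.

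Receptors of other neurotrophic factors included larger differences than any member. *Gfra2*, which encodes the neurturin receptor, stood at 3.41 in association L5 and at 0.68 to 1.7 in the other arrays. *Cntfr*, the receptor gene of ciliary neurotrophic factor, had 2.34 for association and 2.95 for callosal neurons of L2/3, and 0.55 to 1.31 for the deeper layers. *Gfra1*, the GDNF receptor gene, stood at 2.34 in callosal L2/3 and at 0.18 in association L2/3. Of the 25 genes of this list past the filter, 5 had a range of at least 1 log2, or 20%, beside 29.5% of all genes.

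*Bdnf* is known as a gene induced by neuronal activity, so the activity-induced genes are set beside its repeated value. In association minus callosal neurons of L2/3, 3 of 20 such genes, or 15%, were at least 2-fold apart, beside 8.55% of all genes, and all 3 were higher. These were *Egr2* (1.73 log2), *Dusp1* (1.42), and *Jun* (1.08), all genes of the immediate early response. Only *Egr2* was highest in association L2/3, at 2.38 against 0.13 to 1.05 elsewhere. *Dusp1* and *Jun* were instead low in callosal L2/3, at 0.28 and -0.04, against 1.56 to 1.93 and 1.04 to 1.59 elsewhere. The *Bdnf* difference in the same pair was 0.03 with the medians subtracted and 0 as deposited. In L5 the association minus callosal comparison had 0 of 20 such genes at this size, beside 8.46% of all genes. Counts this small are no result about the list.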

How the data were processed

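The authors deposited 1 table of log2 signals for 35556 probe sets from 5 GeneChip Mouse Gene 1.0 ST arrays. The submitters' processing notes name Affymetrix Expression Console, without a version or a method of summarizing probes. The paper's methods name log transformation, global normalization, and centering, and the deposited values are not centered per gene. Array intensities carry no counts, so the single array per group limits the precision. The GEO platform annotation gave 1 symbol for 21789 probe sets, several for 1621, and none for 12146. Each array's median was subtracted, and the probe set of highest mean stood for its gene (each member has 1).

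Of 19938 genes, 12632 were compared, those whose signal reached the median of any array, by differences of log2 signals and a size of 2-fold. No test was run. Members and lists were chosen with earlier results of these data known. Named genes were the members, from each list up to 4 genes with the largest range over the arrays, the 3 genes closest to a member with a range of at least 1 log2, and markers beside a result. Of the list genes so chosen, only part is printed, and *Sorcs1* was added to complete its list. The steps were checked on simulated arrays with independent noise, in which values do not repeat, so repeated values were not covered. Python 3.11.15, pandas 2.3.3, and NumPy 2.4.6 were used. Alternatives were other scalings, filters, probe set rules, and fold sizes, and leaving arrays out of the L6b reference.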

Additional observations from a re-analysis of the deposited data

How the results depend on the processing

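The only setting that moved a count of members at least 2-fold apart was a lower size of 1.5-fold. The counts were then 1 for association minus callosal in L2/3, 2 for L5 minus L2/3 in association neurons, 1 for L6b minus L5, 2 for L6b minus L2/3, and 1 for L6b against the other arrays. At 1.5-fold the pathway, neurotrophic factor, and activity lists held 148 calls over the 6 pairs, at 3-fold 22, and at 2-fold 61. The share of all genes was not computed at 1.5-fold or 3-fold. The counts at these sizes thus have no background beside them and are no result about the members or lists. The member counts were the same, and the list calls 55 to 61, under the values as deposited, quantile normalization, the median of the compared genes, no filter, a filter at the 75th percentile, and the mean of all probe sets. Under the filter at the 75th percentile only *Ntrk2* and *Sort1* were compared, and the mean of probe sets could not change a member, since each has 1. Over the scalings and filters the L6b minus L2/3 difference of *Sort1* in association neurons was -1.67 to -1.44, its L6b minus L5 difference -0.72 to -0.6, and its difference of L6b from the mean of the other arrays, also without each of them in turn, -1.07 to -0.75. The L6b difference of *Ntrk2* from that mean changed sign, from -0.22 to 0.11, and those of *Bdnf* (-0.07 to 0.02) and *Ngfr* (-0.06 to 0.04) did too. No member difference moved by more than 0.24 log2. No paired analysis was possible because each group has 1 array and the labels give no replicate numbers.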
